A study of Mus musculus with 7 samples.

Results

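Interferon-stimulated genes were followed in mouse liver before and after delivery of an adeno-associated virus that carries Cre recombinase. The set was a list of 34 genes given by name. Of these, 29 had a probe set assigned to that gene alone, out of 16819 genes measured in all. Isg15, Gbp2 and Igtp lay only in probe sets that carry several gene symbols, so their values were not used, and Mx1 and Ifi44 were not analysed here. Whole liver RNA came from male mice of mixed 129S4 and C57BL/6 background that were homozygous for a loxP-flanked Dicer1 allele (Dicer1 fl/fl), controls included. The control livers were taken at 0 weeks (3 arrays). The other livers were taken 2 weeks (2 arrays) or 4 weeks (2 arrays) after injection of AAV8-Ttr-Cre, given at 8 to 10 weeks of age. All mice were fasted for 4 hours before the livers were taken.

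The virus is of serotype 8, which enters liver cells readily, and the transthyretin (Ttr) promoter limits Cre mainly to hepatocytes. Other liver cells therefore keep Dicer1, the enzyme that cuts microRNAs from their precursors. Livers given a virus without Cre, and uninjected livers at 2 or 4 weeks, were not analysed here. Virus, Cre, loss of Dicer1, age and time therefore cannot be told apart. Arrays of a group are named as biological replicates in the labels, which do not say more on their origin, so p-values measure the spread between these samples.

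Cells sense viral nucleic acid through receptors such as RIG-I and MDA5 and secrete type I interferon. Interferon binds its receptor and activates transcription factors, among them Stat2 and Irf9, which bind the interferon-stimulated response element in the promoters of target genes. Type II interferon acts instead through the gamma-activated sequence. The induced proteins degrade viral RNA, block viral translation and budding, and raise antigen presentation. In liver, hepatocytes and Kupffer cells, the resident macrophages, both respond to interferon.

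Dicer1 read 8.73, 8.71 and 8.58 (log2 signal) on controls. It read 8.03 and 7.79 at 2 weeks, then 7.97 and 8.05 at 4 weeks. Every array after the virus lay below every control. Of the 16819 genes, 997 passed an adjusted p under 0.05 at 2 weeks and 1643 at 4 weeks (limma, Benjamini-Hochberg adjustment over all genes). The hepatocyte gene Alb read 14.5 on all 7 arrays, and 11 of 12 hepatocyte markers could be measured. Both comparisons with control use the same 3 control arrays, so their values are not independent of each other.

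The promoters were searched for both elements, since they are the sequences through which interferon acts on these genes. RefSeq promoters (assembly GRCm38.p6, 250 bases before to 50 after the annotated start) were matched for 26 of the 34 genes, and 4 of these (Ifit2, Irf1, Irf9 and Gbp3) had 2 promoters listed. A gene was counted if any of its promoters matched. The letters TTTC, any 2 bases and TTTC again, on either strand, stood for the interferon-stimulated response element. TTCNNNGAA, where N is any base, stood for the gamma-activated sequence. The first was present in 14 of 26 genes (53.8%) and in 3.99% of all 27025 genes with promoters of the same length. The second, which reads alike on both strands, was present in 7 of 26 genes (26.9%) and in 9.55% of all genes. The following stretches belong to genes whose values are given further on, and are printed 5′ to 3′ along the gene. Capitals mark the response element letters and, in Irf1 only, the gamma-activated letters.
Ifit1, chr19:34640770-34640828, plus strand: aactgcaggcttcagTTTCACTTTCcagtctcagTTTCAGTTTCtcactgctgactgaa
Ifit3, chr19:34583358-34583431, plus strand: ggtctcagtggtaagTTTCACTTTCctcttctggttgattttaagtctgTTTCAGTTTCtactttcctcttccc
Rsad2, chr12:26456548-26456587, minus strand: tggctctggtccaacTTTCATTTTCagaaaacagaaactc
Oas1a, chr5:120907526-120907560, minus strand: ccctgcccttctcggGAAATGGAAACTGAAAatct
Bst2, chr8:71537572-71537617, minus strand: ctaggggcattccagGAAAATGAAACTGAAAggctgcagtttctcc
Gbp3, chr3:142559984-142560029, plus strand: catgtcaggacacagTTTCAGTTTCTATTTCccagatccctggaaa
Irf1, chr11:53769909-53769947, plus strand: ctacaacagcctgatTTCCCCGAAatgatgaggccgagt
In Ifit1 and Ifit3 the response element letters occurred in 2 separate copies. In Oas1a, Bst2 and Gbp3 the copies overlapped, and in Oas1a and Bst2 they lay in reverse on the gene's own strand. In Bst2 a gamma-activated sequence also overlapped them, between 136 and 128 bases before the start, and is not set in capitals. Irf1 held the gamma-activated letters 90 to 82 bases before its start and no response element letters in its listed windows. A match describes the letters only.

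**Figure D1:**
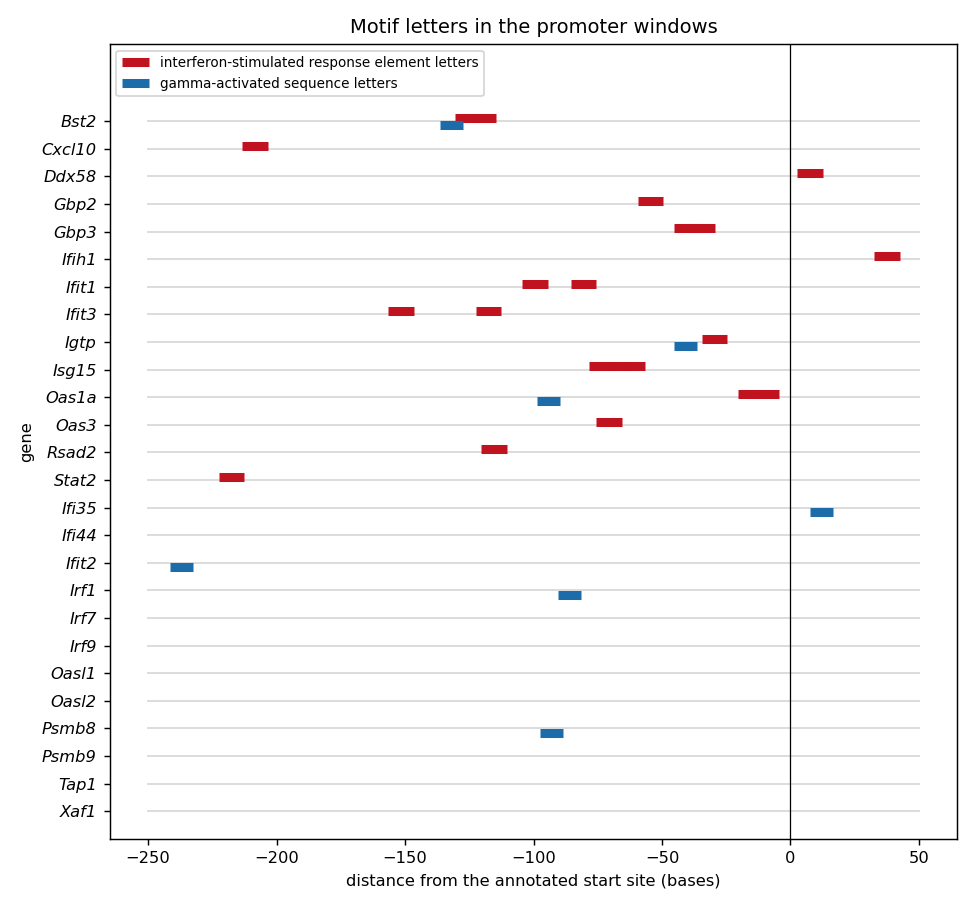
Position of the motif letters in the promoter windows of 26 genes, by distance in bases from the annotated start site (1 line per gene). Red bars mark the interferon-stimulated response element letters, present in 14 genes, and blue bars the gamma-activated sequence letters, present in 7. All red bars lie before the start, except those of Ddx58 and Ifih1, which lie after it.

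Few of the 29 genes differed from control by more than the spread between arrays. At 2 weeks 0 of 29 passed the adjusted p of 0.05, against 5.93% of all genes (limma; 3.46% higher and 2.47% lower). At an unadjusted p under 0.05 the count was 8 of 29 (27.6%), against 23% of all genes. At 4 weeks 2 of 29 passed (6.9%, against 9.77%). Irf1 rose (1 of 29, against 5.15% of all genes) and Bst2 fell (1 of 29, against 4.62%). At an unadjusted p, 5 of 29 (17.2%) and 24.8% of all genes passed at that time. With both times averaged, called after Cre from here on, 2 of 29 passed, against 12.9% of all genes. Irf1 and Ddx58 rose (6.9%, against 6.79%), and 0 members fell (against 6.12%). At an unadjusted p, 8 of 29 (27.6%) and 27.4% of all genes passed in that comparison. At the adjusted threshold the counts were thus near or under the background of all genes. Between 4 and 2 weeks 0 of 29 passed, against 0.00595% of all genes (1 gene), and 1 of 29 passed at an unadjusted p (3.45%, against 7.43%).

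The log2 changes leaned upward, with small medians. The median over the 29 genes was 0.22 at 2 weeks, 0.14 at 4 weeks and 0.18 after Cre, where the medians of all genes were -0.00, 0.01 and 0.00. A change above 0 was seen for 22 of 29 genes at 2 weeks (75.9%, against 48% of all genes) and for 18 of 29 at 4 weeks (62.1%, against 52.6%). After Cre it was 20 of 29 (69%, against 51%). The middle 90% of all genes ran from -0.42 to 0.46 at 2 weeks, and 8 members lay above that range and 1 below it. By definition 5% of all genes lie on either side of such a range. At 4 weeks the range ran from -0.46 to 0.47, with 4 members above and 1 below. From 2 to 4 weeks only 5 of 29 changes lay above 0 (17.2%, against 52.8%). The standard errors were wide: their median was 0.23 for the members and 0.081 for all genes at either time. The median change rested on single livers. At 2 weeks it was 0.45 without the first liver of that time and -0.05 without the second. The same values at 4 weeks were 0.42 and -0.15. After Cre it was 0.34 without the first 4 week liver and 0.02 without the second.

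**Figure D2:**
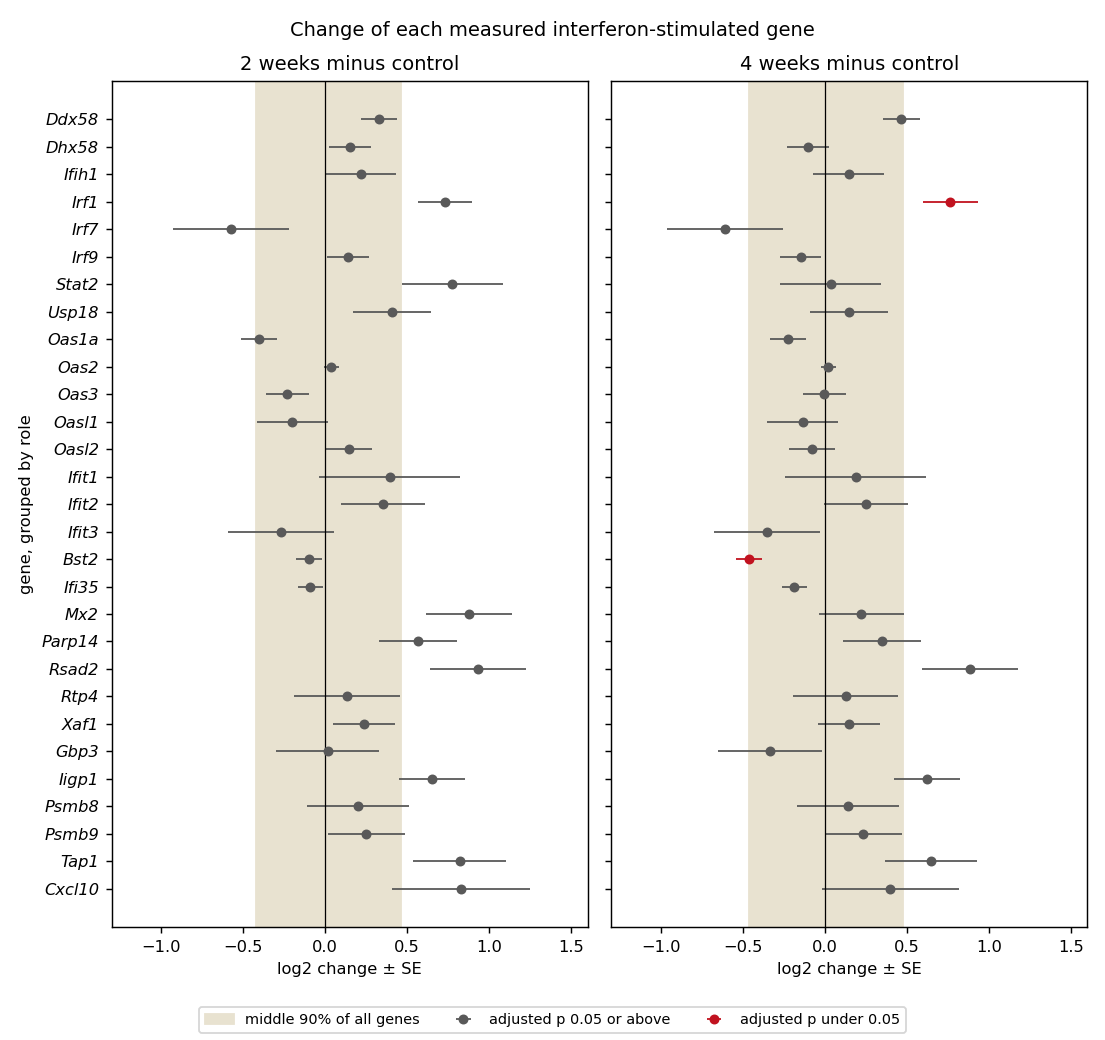
Change of each of the 29 genes at 2 weeks (left) and 4 weeks (right), in log2 units minus control, with the standard error of the limma fit as the bar. The shaded band is the middle 90% of all genes, and red marks genes with an adjusted p under 0.05, which are Irf1 and Bst2 at 4 weeks.

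Nucleic acid sensors were represented by Ddx58, which encodes RIG-I, Ifih1, which encodes MDA5, and Dhx58, which encodes the related helicase LGP2. Ddx58 read 8.83, 8.97 and 8.94 on controls, 9.09 and 9.40 at 2 weeks and 9.28 and 9.48 at 4 weeks. All 4 arrays after the virus lay above all 3 controls. After Cre it was 1.32-fold higher (log2 change 0.40, SE 0.09, limma adjusted p = 0.0471). At the single times the log2 changes were 0.33 (adjusted p = 0.153) and 0.47 (adjusted p = 0.0581). The call after Cre held without the first 2 week liver (adjusted p = 0.0245) and was lost without any other array. Without control 1, 2 or 3 the adjusted p was 0.151, 0.122 or 0.139. It was 0.0766 without the second 2 week liver, and 0.0875 or 0.138 without the first or second 4 week liver. These losses came with fewer arrays in the fit. Ifih1 ranged from 9.04 to 9.18 on controls and from 8.96 to 9.59 on the 4 later arrays, and Dhx58 from 7.16 to 7.29 and from 7.03 to 7.56. Both sensors overlapped control, and neither passed at any time.

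Among the transcription factors, Irf1, which activates interferon and antigen presentation genes, was the member with the smallest adjusted p at 2 weeks and after Cre. It read 7.89, 8.20 and 7.79 on controls, 8.48 and 8.89 at 2 weeks and 8.76 and 8.68 at 4 weeks. Every array after the virus lay above every control, and the times overlapped each other. Irf1 was 1.70-fold higher at 4 weeks (log2 change 0.76, SE 0.17, limma adjusted p = 0.0464) and 1.68-fold higher after Cre (0.75, SE 0.14, adjusted p = 0.0259). At 2 weeks the value was alike in size (1.66-fold, log2 change 0.73) and missed the threshold (adjusted p = 0.0643). A second, dimmer Irf1 probe set ranged from 6.25 to 6.42 on controls and from 6.34 to 6.47 later, which overlapped. The 4 week call of Irf1 was lost without any control (adjusted p = 0.133, 0.0685 and 0.137 without controls 1, 2 and 3) and without either 4 week liver (0.196 and 0.172). After Cre it held without control 2 (0.0499) and without the first 2 week liver (0.0234). It was lost without control 1 (0.0964) or 3 (0.101), the second 2 week liver (0.0576) and the first (0.0937) or second (0.089) 4 week liver.

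Irf7, the factor that amplifies type I interferon output, was not higher. It read 8.29, 8.97 and 8.80 on controls, 7.91 and 8.32 at 2 weeks, then 7.58 and 8.59 at 4 weeks. The arrays overlapped, with the first liver of each time below every control and the second within their range. The log2 change was -0.57 (SE 0.35, limma adjusted p = 0.4) at 2 weeks and -0.61 (SE 0.35, adjusted p = 0.37) at 4 weeks. Stat2, which carries the type I interferon signal to the nucleus, ranged from 9.06 to 9.47 on controls, and read 9.74 and 10.23 at 2 weeks and 8.78 and 9.70 at 4 weeks. Its 2 week arrays lay above every control (log2 change 0.78, SE 0.31, adjusted p = 0.212), and its 4 week arrays lay on either side of them. Irf9, which binds DNA together with Stat2, ranged from 8.02 to 8.10 on controls and from 7.74 to 8.34 later and did not pass.

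The classical antiviral families were small, with 5 genes of the 2-5A synthetase family and 3 Ifit genes measured. Of these, 0 passed at 2 weeks, 4 weeks or after Cre, against 5.93%, 9.77% and 12.9% of all genes. Families this small can hold 0 calls at those shares. The 2-5A synthetases make the messenger that switches on RNase L. Oas1a read 7.05, 6.89 and 6.86 on controls, 6.52 and 6.54 at 2 weeks and 6.55 and 6.87 at 4 weeks. Its 2 week arrays lay below every control (log2 change -0.40, SE 0.11, limma adjusted p = 0.0924), and at 4 weeks the second liver lay within the control range (-0.23, adjusted p = 0.275). The other 4 family members, Oas2, Oas3 and the synthetase-like Oasl1 and Oasl2, had log2 changes between -0.23 and 0.14 over both times. Oas1a belongs to a group of near-identical genes, and so do the Ifit and Gbp genes in part, so their signals may be shared with relatives.

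Ifit proteins bind foreign RNA and hold back its translation. Ifit3 read 7.11, 7.22 and 6.97 on controls, 6.31 and 7.35 at 2 weeks, then 6.48 and 7.01 at 4 weeks. The first liver of each time lay below every control and the second did not, so the groups overlapped (log2 change -0.27 at 2 weeks, adjusted p = 0.673, and -0.35 at 4 weeks, adjusted p = 0.571, limma). Ifit1 ranged from 6.90 to 7.01 on controls. It read 6.82 and 7.87 at 2 weeks and 6.55 and 7.72 at 4 weeks, so 1 liver of each time lay below all controls and the other above them. Ifit2 read from 5.89 to 6.11 on controls and from 5.91 to 6.74 later. The promoters of Ifit1 and Ifit3 each hold 2 copies of the response element letters, as printed above.

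Of the other antiviral effectors, Bst2, or tetherin, which holds budding virus at the cell surface, fell at 4 weeks. It read 10.12, 10.01 and 10.22 on controls, 9.97 and 10.08 at 2 weeks and 9.60 and 9.72 at 4 weeks. Both 4 week arrays lay below all others. Bst2 was 1.38-fold lower at 4 weeks (log2 change -0.46, SE 0.08, limma adjusted p = 0.027). At 2 weeks the log2 change was -0.10 (adjusted p = 0.525), and after Cre -0.28 (adjusted p = 0.0501). The 4 week call was lost without control 1 (0.0834), 2 (0.0589) or 3 (0.0778) and without the first (0.131) or second (0.0964) 4 week liver.

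Rsad2, or viperin, which makes a chain-terminating nucleotide, had the highest log2 change of the 29 genes at each time. It read 7.01, 7.03 and 6.88 on controls, 7.47 and 8.34 at 2 weeks and 7.57 and 8.15 at 4 weeks. Every array after the virus lay above every control, and the second liver of each time lay highest. The log2 change was 0.93 at 2 weeks (SE 0.29, limma adjusted p = 0.13), 0.88 at 4 weeks (SE 0.29, adjusted p = 0.129) and 0.91 after Cre (SE 0.24, adjusted p = 0.0676), none of which passed. Without the first 2 week liver Rsad2 passed at 2 weeks (1.37, adjusted p = 0.0393) and after Cre (1.13, adjusted p = 0.0251). Without the second, its log2 change was 0.49 at 2 weeks (adjusted p = 0.368) and 0.69 after Cre (adjusted p = 0.096).

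Mx2, a dynamin-like GTPase, read 5.43, 5.90 and 6.09 on controls, 6.93 and 6.44 at 2 weeks and 5.79 and 6.27 at 4 weeks. Its mean signal lay below 6.37, the level under which the dimmest 30% of genes fall. Its 2 week arrays lay above every control and its 4 week arrays did not (log2 change 0.88, SE 0.26, limma adjusted p = 0.117, and 0.22, adjusted p = 0.667). It was the gene whose first 2 week liver most exceeded the second, by 0.48. Parp14, an ADP-ribosyltransferase, ranged from 8.19 to 8.34 on controls and from 8.42 to 9.20 later, with no overlap and no call (0.46 after Cre, adjusted p = 0.214). Ifi35 lay lower on every later array (8.19 to 8.43) than on controls (8.47 to 8.52), with a log2 change of -0.14 after Cre (adjusted p = 0.235). Xaf1 and Rtp4 overlapped control at both times. Usp18, the protease that removes Isg15 from proteins and damps the receptor, ranged from 6.95 to 7.21 on controls and from 6.94 to 7.78 later, and also overlapped.

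Genes of type II interferon and antigen processing included Tap1, which pumps peptides into the endoplasmic reticulum for loading on MHC class I. Tap1 read 7.52, 7.59 and 7.59 on controls, 7.93 and 8.84 at 2 weeks and 7.97 and 8.46 at 4 weeks. All 4 later arrays lay above the controls, and the second liver of each time was the higher. The log2 change was 0.82 at 2 weeks (SE 0.28, limma adjusted p = 0.161), 0.65 at 4 weeks (SE 0.28, adjusted p = 0.235) and 0.73 after Cre (SE 0.24, adjusted p = 0.109). Psmb8 and Psmb9, subunits of the immunoproteasome, ranged from 8.22 to 8.38 and from 8.61 to 8.74 on controls. Later they ranged from 8.06 to 8.91 and from 8.54 to 9.32, and overlapped control. Iigp1, an immunity-related GTPase, ranged from 10.71 to 10.91 on controls and from 11.11 to 11.73 later, without overlap (0.64 after Cre, SE 0.17, adjusted p = 0.0672). Gbp3, a guanylate-binding protein, ranged from 7.12 to 7.24 on controls and from 6.33 to 7.47 later.

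Cxcl10, a chemokine that draws T cells and is induced by both kinds of interferon, read 7.02, 7.29 and 7.07 on controls, 7.28 and 8.63 at 2 weeks, then 7.19 and 7.87 at 4 weeks. The first liver of each time lay within the control range and the second above it. The log2 change was 0.83 at 2 weeks (SE 0.42, limma adjusted p = 0.314) and 0.40 at 4 weeks (SE 0.42, adjusted p = 0.626). Cxcl10 had the widest gap between the livers of 1 time, 1.35 log2 units at 2 weeks.

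**Figure D3:**
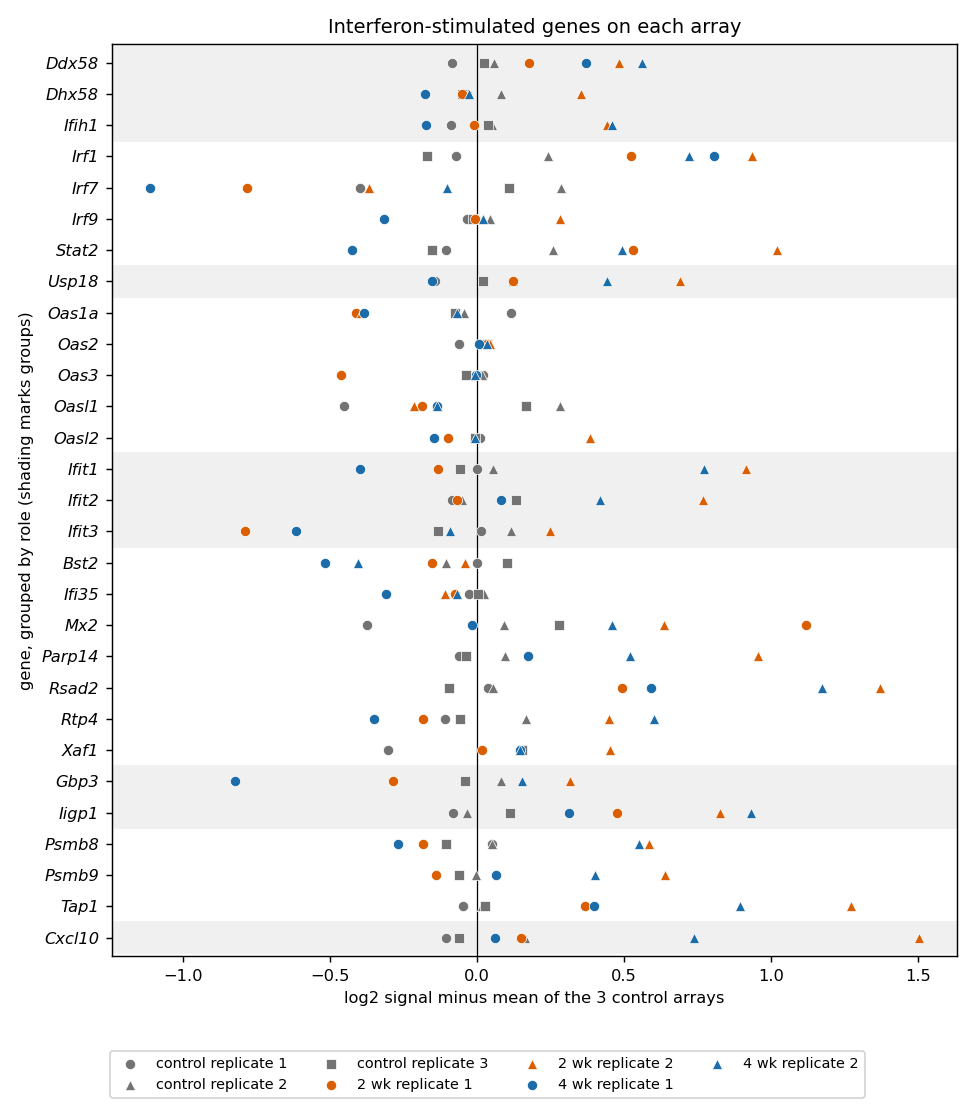
Log2 signal of each of the 29 genes on each of the 7 arrays, minus the mean of the 3 control arrays, with genes grouped by role (shading). Grey marks are controls, orange 2 weeks and blue 4 weeks, with circles for replicate 1, triangles for replicate 2 and a square for control replicate 3. Triangles of the injected groups lie to the right of the circles for most genes, and all 4 coloured marks lie right of the grey marks for Irf1, Rsad2, Ddx58, Tap1, Iigp1 and Parp14.

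In all, every array after the virus lay above every control for 6 of 29 genes (20.7%, against 12.9% of all genes), namely Irf1, Rsad2, Ddx58, Tap1, Iigp1 and Parp14. Every later array lay below every control for 1 of 29, Ifi35 (3.45%, against 12.2%). At 2 weeks alone the counts were 8 above (27.6%, against 17.3%) and 2 below (6.9%, against 17.5%). At 4 weeks alone they were 6 above (20.7%, against 21.6%) and 2 below (6.9%, against 18.2%).

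Between the livers of a time point, these genes differed in the same direction more often than all genes did. At 2 weeks the array labelled replicate 2 lay above replicate 1 for 26 of 29 genes (89.7%, against 42.6% of all genes), and at 4 weeks for 25 of 29 (86.2%, against 44.6%). The same held at both times for 23 of 29 genes (79.3%, against 21.1%). The median difference was 0.46 at 2 weeks and 0.35 at 4 weeks, where that of all genes was 0.00. In array medians the members stood -0.05 and 0.45 from the control mean at 2 weeks and -0.15 and 0.42 at 4 weeks, and between -0.06 and 0.05 on the controls. The first liver of each time thus lay near the controls and the second above them. The labels name no batch and do not say whether the numbers link livers of different times, which was not tested beyond the check of same-numbered arrays over all genes.

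**Figure D4:**
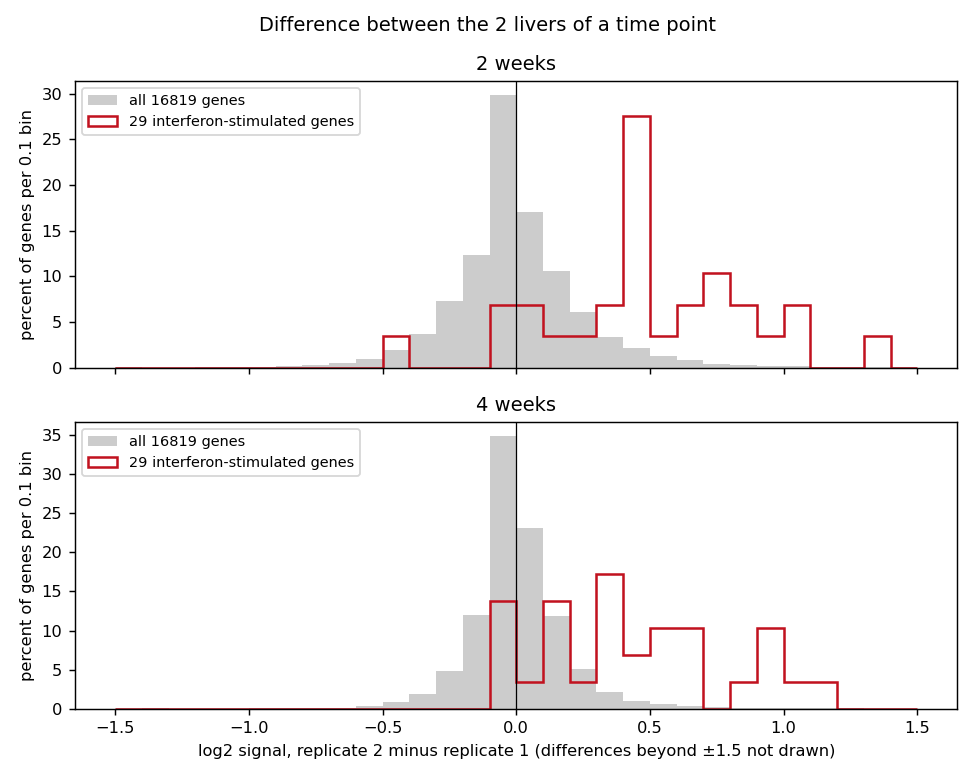
Difference in log2 signal between the livers of a time point (replicate 2 minus replicate 1), at 2 weeks (top) and 4 weeks (bottom), as the percent of genes per bin of 0.1. The red outline (29 genes) is centred near 0.46 at 2 weeks and 0.35 at 4 weeks, and the grey bars (16819 genes) near 0.00.

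At 2 weeks the members that passed depended on which liver was left out. Without replicate 1, 6 of 29 passed (20.7%, against 12.9% of all genes in that fit): Cxcl10, Irf1, Oasl2, Parp14, Rsad2 and Tap1. Without replicate 2, 1 passed, Oas3, which was lower (log2 change -0.46, limma adjusted p = 0.0371, against 1.96% of all genes called). After Cre, 5 passed without the first 2 week liver (Ddx58, Irf1, Parp14, Rsad2 and Tap1, against 16.6% of all genes). In that comparison 1 passed without control 1 (Oasl1, against 5.08% of all genes), control 2 (Irf1, against 3.39%), the second 2 week liver (Oas3, against 9.99%) or the first 4 week liver (Iigp1, against 5.24%). None passed without control 3 (against 3.41%) or the second 4 week liver (against 5.43%). In these fits a lone array of a time point was taken to vary like the other groups. The mean signal of Oas3 lay below 6.37, the level under which the dimmest 30% of genes fall.

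Values of members with and without the response element letters in their promoters are given side by side, untested. The 11 measured members with the letters had a median log2 change of 0.22 at 2 weeks and 0.03 at 4 weeks, and the 11 without had 0.20 and 0.14. The median difference between the livers of a time was 0.49 and 0.58 with the letters, and 0.43 and 0.34 without. The 6 measured members with the gamma-activated letters had a median log2 change of 0.06 at 2 weeks and -0.02 at 4 weeks. Bst2, which fell at 4 weeks, holds both elements, and so does Oas1a, which did not pass. Irf1, which rose, holds the gamma-activated letters alone, as do Ifit2, Ifi35 and Psmb8, which did not pass. Ddx58, which rose after Cre, holds the response element letters alone.

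Few genes of interferons and their receptors passed, and their log2 changes ran from -0.61 at 2 weeks to 0.44 at 4 weeks. Of 27 listed genes 16 were measured, 0 passed at 2 weeks and 2 rose at 4 weeks (12.5%, against 9.77% of all genes): the interferon lambda gene Ifnl2 (log2 change 0.39, limma adjusted p = 0.0475) and the type I receptor chain Ifnar1 (0.32, adjusted p = 0.0463). After Cre 0 of 16 passed. With 1 array left out, both 4 week calls were lost without any control or 4 week liver. They held only without a 2 week liver, which removes no array of that comparison. Ifng, which encodes type II interferon, ranged from 6.22 to 6.32 on controls (exact values 6.22173, 6.22173 and 6.31459) and from 5.89 to 6.22 later. Its value was exactly equal on 5 of the 7 arrays, and it lay among the dimmest 30% of genes. A lack of change therefore cannot be read from Ifng. Ifna14 and Ifne were also exactly equal on 5 arrays and Ifna9 on 4, so it cannot be read from them either. Ifnar2, Ifngr1 and Ifngr2, the other receptor chains, had log2 changes from -0.25 to 0.28 over both times and did not pass. Ifnb1 was not analysed here.

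Among signalling and nucleic acid sensing genes 29 of 33 were measured. At 2 weeks 3 rose (10.3%, against 5.93%): Stat3, which carries the interleukin-6 signal (log2 change 0.64, limma adjusted p = 0.0129), Trim25, the ubiquitin ligase of RIG-I (0.84, adjusted p = 0.0466), and Tbk1, the kinase that activates interferon regulatory factors (0.35, adjusted p = 0.0395). At 4 weeks 1 fell (3.45%, against 9.77%), Mavs, the adaptor of RIG-I and MDA5 (-0.35, adjusted p = 0.0432). After Cre 6 rose and 1 fell (24.1%, against 12.9%). The additional genes that rose were the kinase Jak1, the double-stranded RNA receptor Tlr3 and its chaperone Unc93b1. Tlr3 read 5.82, 6.19 and 6.21 on controls, 6.64 and 7.39 at 2 weeks and 6.78 and 7.05 at 4 weeks, with no overlap. Of the genes that passed in no comparison, Myd88 (-0.44 after Cre) and Ikbke (-0.50) lay below every control on all later arrays. Jak2 (0.20), Zbp1 (0.65) and Socs3 (0.42) lay above every control. With 1 array left out the number that rose at 2 weeks ran from 0 of 29 (without control 2 or 3, against 0.493% and 0.143% of all genes) to 9 (without the first 2 week liver, against 6.49%). After Cre it ran from 0 (without control 2 or 3, against 2.09% and 1.98%) to 9 (without the first 2 week liver, against 8.48%). Stat3 kept its 2 week call in 5 of 7 such fits (lost without control 2 or 3, adjusted p up to 0.0635), and Trim25 and Tbk1 in 1 of 7, without the first 2 week liver. Mavs lost its 4 week call without any control or 4 week liver, and kept it only without a 2 week liver. For a comparison of 1 time with control, leaving out a liver of the other time removes no array compared. Either such liver gives the same fit, so it does not test the calls of Stat3 or Mavs.

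A wider list of interferon-induced genes, with none of the 34 in it, had 54 of 76 entries measured. At 2 weeks 4 rose and 1 fell (9.26%, against 5.93%), at 4 weeks 6 rose and 1 fell (13%, against 9.77%), and after Cre 7 rose and 1 fell (14.8%, against 12.9%). The median log2 change was 0.21, 0.15 and 0.20 in these comparisons. Helz2, a helicase and nuclear receptor coactivator, read 8.64, 8.64 and 8.33 on controls, 9.45 and 9.56 at 2 weeks and 9.36 and 9.60 at 4 weeks. All later arrays lay above the controls by more than the spread among them (0.95 after Cre, SE 0.11, limma adjusted p = 0.00783). Parp12, an ADP-ribosyltransferase (0.91), Lgals9, or galectin-9 (0.64), and Mov10, an RNA helicase (0.72), also rose after Cre, with Zc3hav1, Trim21 and Lgals3bp. Ifitm2, a membrane protein that blocks viral entry, fell (-0.72 after Cre). With 1 array left out, Helz2 passed after Cre in all 7 fits (adjusted p from 0.017 to 0.0386). Ifitm2 passed in 4 of these fits, Parp12 in 3, and Lgals9, Mov10, Zc3hav1, Trim21 and Lgals3bp in 2 each. The number of genes that rose after Cre ran from 1 of 54 (without any 1 control or the second 4 week liver, against 1.98% to 3.12% of all genes) to 17 (31.5%, without the first 2 week liver, against 8.48%). At 2 weeks 16 rose without the first 2 week liver (29.6%, against 6.49%) and 0 without any other array (against 0.143% to 1.08%). Here too the second liver exceeded the first at both times for 38 of 54 genes (70.4%, against 21.1%).

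MHC class I and peptide loading genes had 0 of 16 calls at 2 weeks and 0 at 4 weeks, against 5.93% and 9.77% of all genes. After Cre Tapbp, which tethers class I to the peptide pump, rose (0.49, limma adjusted p = 0.0381) and Erap1, which trims peptides, fell (-0.17, adjusted p = 0.0321), which makes 2 of 16 (12.5%, against 12.9% of all genes). Among 22 NF-kB and inflammatory genes, Tnfaip2 rose and Nfkbia, the inhibitor of NF-kB, fell at both times (9.09% at each, against 5.93% and 9.77% of all genes). With 1 array left out, Tnfaip2 passed in 1 of 7 fits at 2 weeks, 3 at 4 weeks and 7 after Cre. Nfkbia passed in 0, 2 and 3 fits, and after Cre Tapbp passed in 2 and Erap1 in 1. The 4 week counts of Tnfaip2 and Nfkbia include the fits without a 2 week liver, which are the same fit and remove no array compared.

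Markers of other liver cells were read on the same arrays. In whole liver RNA, fewer cells of a type and less RNA per cell cannot be told apart. Of 14 Kupffer cell and macrophage markers, all measured, 0 passed at 2 weeks, 4 weeks or after Cre. The shares of all genes that passed were 5.93%, 9.77% and 12.9%. Single log2 changes ran both ways, from -0.74 to 0.61 at 2 weeks and from -0.65 to 0.54 at 4 weeks. A change above 0 was seen for 7, 6 and 3 of the 14 markers at 2 weeks, 4 weeks and after Cre (against 48%, 52.6% and 51% of all genes). Their mean log2 signal was 8.49, 8.65 and 8.77 on controls, 8.45 and 8.83 at 2 weeks, then 8.39 and 8.73 at 4 weeks. The second liver exceeded the first for 13 of 14 markers at 2 weeks and 14 of 14 at 4 weeks, the same order as in the interferon-stimulated genes. Sinusoidal endothelial markers did so for 8 of 9 at each time, with means from 9.07 to 9.17 on controls, 8.90 and 9.29 at 2 weeks, then 9.17 and 9.29 at 4 weeks. The part of these cells in the difference between livers was not tested. T cell markers (9 of 11 measured) had means between 6.06 and 6.11 on all 7 arrays, and 0 of them passed. NK cell, B cell, dendritic cell and monocyte or neutrophil markers, of which 5, 5, 6 and 6 were measured, also had 0 calls. Lists this short can hold 0 calls at the shares of all genes, so a lack of change cannot be read from them. Single markers of other types rose at 4 weeks, when 9.77% of all genes passed: endothelial Clec4g (1 of 9) and bile duct Sox9 (1 of 5). After Cre, where 12.9% of all genes passed, Sox9 (1 of 5) and stellate Pdgfrb (1 of 8) rose. Of the 11 hepatocyte markers, Trf rose at 4 weeks (9.09%) and Trf and Fgb after Cre (18.2%). All of these calls were lost without control 1, and likewise without control 3. Counts of 1 or 2 in lists this short do not stand apart from the shares of all genes. Arrays give no true zero, so absence of these cells cannot be read from the values.

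**Figure D5:**
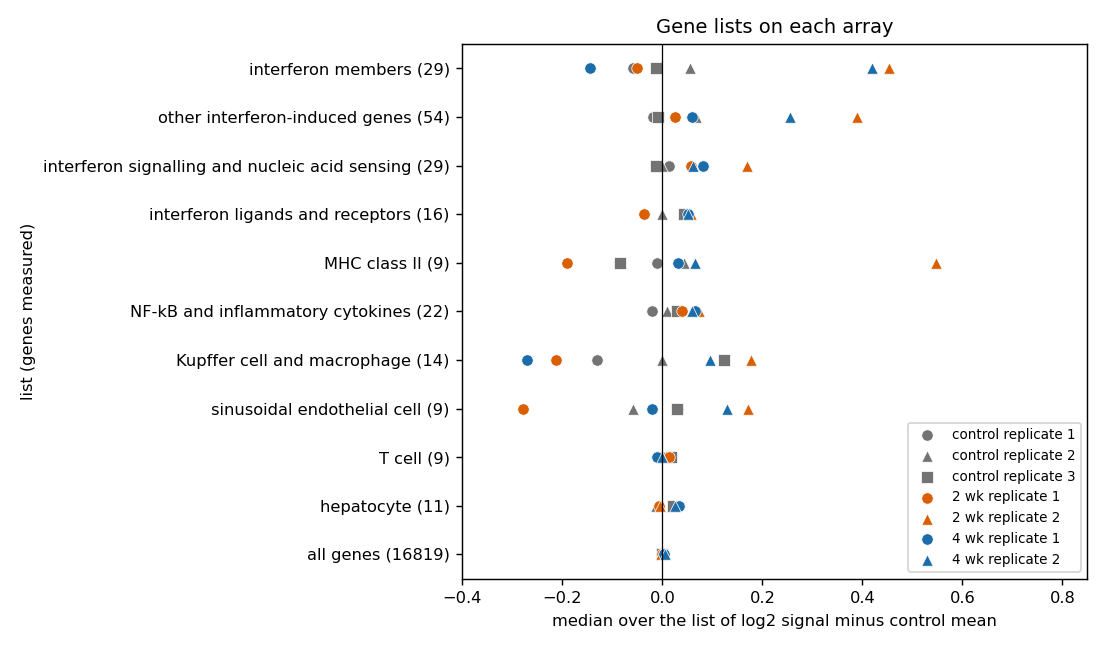
Median, over the genes of each list, of the log2 signal minus the control mean, for each of the 7 arrays (number of genes measured in brackets). The interferon-stimulated genes stand at 0.45 and 0.42 on replicate 2 of the injected groups and at -0.05 and -0.15 on replicate 1. The Kupffer cell list shows the same order over a smaller range, and the T cell, hepatocyte and all-gene medians stay near 0. T cell means (6.06 to 6.11) lie below 6.37, the level under which the dimmest 30% of genes fall. Hepatocyte means (13.8) lie near the highest signal (14.7), so changes in either list may go unseen.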

How the data were processed

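Liver RNA was measured on 7 biotin-labelled Affymetrix whole-transcript arrays, 1 per sample, grouped by the labels' time and genotype. Per probe set, the table deposited by the authors holds a log2 signal, ranging from 3.15 to 14.7 with array medians of 7.07 to 7.09. The log base was read from the values. GCOS 1.4 is named in the submitters' processing notes, and the sources used here do not give how the signals were corrected, summarised and normalized. Of 21093 probe sets, 17709 had 1 gene symbol, 187 several and 3197 none, and 17648 matched RefSeq genes (GRCm38.p6). For 463 genes with several probe sets, the one with the highest mean was kept. The log2 values were fitted as deposited by the authors, unfiltered, with limma 3.58.1 (R 4.3.3; lmFit and eBayes, 3 groups, two-sided, Benjamini-Hochberg over 16819 genes), tested first on simulated data. Exactly equal values on 2 or more arrays occurred in 59.6% of probe sets and 10 of 29 members. Arrays left out in turn, other scalings, filters, spread estimates and the replicate block were tried as alternatives. Deviations of same-numbered arrays correlated from -0.065 to 0.11 over all genes, with not every pair above 0.1, so the numbers were not treated as pairs. Whether they mark a shared batch is unknown. The number of arrays limits the precision. The members and lists were chosen with earlier results of these data known. Full values were given for members passing in any comparison or among the 3 largest changes either way against control, and for some others chosen after their values were seen. Outside the members, the passing genes with the smallest adjusted p in each list were named, with a few more.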

Additional observations from a re-analysis of the deposited data

How the results depend on the processing

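At 2 weeks 0 members were called, and 1 (Irf1) with the 30% of genes of lowest mean left out. That filter kept 25 of the 29 members and dropped Mx2, Ifit2, Oas2 and Oas3, so changes in these dim genes may go unseen. At 4 weeks 2 members were called, and 0 with the replicate block. Centring each array on its median, leaving out the dim genes or fitting only the groups compared gave 3 (Ddx58 added). After Cre 2 were called, against 4 after quantile normalization (Bst2 and Iigp1 added) and 5 without the dim genes (Bst2, Iigp1 and Rsad2 added). Median centring and the mean of a gene's probe sets each gave 3 (Bst2 added). Bst2 was lower in each of these settings. A variance trend gave 1 (Irf1) and the replicate block 0. With each array left out in turn, the member count ran from 0 to 6 at 2 weeks, from 0 to 3 at 4 weeks and from 0 to 5 after Cre, and the median member change from -0.15 to 0.42 at 4 weeks, from 0.023 to 0.34 after Cre and from -0.42 to 0.17 between 4 and 2 weeks. Over all genes the counts ran from 41 to 2168, from 63 to 1948 and from 570 to 2788. With the replicate block 0 genes passed at 2 weeks, 2 at 4 weeks and 5 after Cre. Only the controls have a replicate 3, so the block fits that array exactly and leaves less from which to estimate the spread. The losses with the block therefore do not show whether the replicate numbers mark a batch. With only the groups compared, 276 passed at 2 weeks. That setting does not apply after Cre.

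Signs turned in 4 results with all arrays kept: Oas2 at 4 weeks (-4.9e-05, quantile normalization), and, with the replicate block, Gbp3 at 2 weeks (-0.0046), Stat2 at 4 weeks (-0.041) and Dhx58 after Cre (-3.25e-05). With 1 array left out signs turned in 31 results, none of them called. At 2 weeks these were Dhx58 (-0.051 to 0.35), Gbp3 (-0.29 to 0.32), Ifih1 (-0.0092 to 0.44), Ifit1 (-0.13 to 0.92), Ifit2 (-0.066 to 0.77), Ifit3 (-0.79 to 0.25), Irf9 (-0.0046 to 0.28), Oasl2 (-0.096 to 0.38), Psmb8 (-0.18 to 0.58), Psmb9 (-0.14 to 0.64) and Rtp4 (-0.18 to 0.45). At 4 weeks they were Gbp3 (-0.82 to 0.16), Ifih1 (-0.17 to 0.46), Ifit1 (-0.40 to 0.77), Irf9 (-0.32 to 0.021), Mx2 (-0.015 to 0.46), Oas2 (-0.0088 to 0.038), Oas3 (-0.022 to 0.0066), Oasl1 (-0.36 to 0.0071), Psmb8 (-0.27 to 0.55), Rtp4 (-0.35 to 0.60), Stat2 (-0.42 to 0.49), Usp18 (-0.15 to 0.44) and Xaf1 (-0.0028 to 0.23). After Cre they were Dhx58 (-0.076 to 0.13), Gbp3 (-0.40 to 0.086), Ifit1 (-0.0022 to 0.58), Irf9 (-0.089 to 0.080), Oasl2 (-0.086 to 0.15), Psmb8 (-0.032 to 0.38) and Rtp4 (-0.11 to 0.37). The cause was not tested.

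With 3, 2 and 2 arrays, changes of the size seen in most members lay within the spread between livers. No detection call was given with the values, so the lower limit of each probe set is unknown. 10 of 29 members share an exact value on 2 or more arrays. The correlation of same-numbered livers was 0.11 between 2 and 4 weeks.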

Other observations

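MHC class II genes, which present antigen on macrophages, dendritic cells and B cells, stood apart on 1 array. Of 11 listed genes 9 were measured and 0 passed in any comparison, against 5.93% of all genes at 2 weeks, 9.77% at 4 weeks and 12.9% after Cre. H2-Aa read 8.64, 8.82 and 8.49 on controls, 8.27 and 9.45 at 2 weeks and 8.73 and 8.71 at 4 weeks. H2-Eb1 and Cd74 followed the same order at 2 weeks, with 8.08 and 9.15, and 8.12 and 9.19. All 9 genes were higher on the second 2 week liver than on the first, with a median difference of 0.64. At 4 weeks 5 of 9 were higher on the second liver, with a median difference of 0.02. The interferon-stimulated genes differed between livers at both times, by medians of 0.46 and 0.35.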
